A study of Sus scrofa with 48 samples.

Results

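The transcripts of antioxidant enzymes and their partner proteins were measured in F2 pigs, in liver, in kidney and in the gluteus muscle of the hind limb (GM). The set was given by name as CAT, SOD2, GPX1, GPX3, GPX4, TXN, PRDX6 and HMOX1, and a probe belonged to it when the accession printed for it on the array was the RefSeq accession of one of these genes. Of the 8 genes, 6 had a probe, and these 6 had 9 of the 43603 probes on the array (2628 of all probes could be given 1 RefSeq gene name, for 1862 genes). No probe carried the accession of SOD2 or GPX3, and neither gene was analysed here. CAT, GPX1 and HMOX1 had 1 probe each, and GPX4, TXN and PRDX6 had a pair each. A probe pair shares its gene and its RNA sample, so the probes of a gene were not counted as independent.

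The samples came from 16 Large White pigs of the F2 generation, and each pig gave GM, liver and kidney, so that 48 arrays were read in all. The 8 F2 E pigs descended from F0 boars whose feed was enriched in methionine, choline, betaine, folate and the vitamins B6 and B12, and the 8 F2 C pigs descended from F0 boars on the unenriched feed. Each line held 4 barrows (castrated males) and 4 females. No F2 pig ate the enriched feed itself: F1 boars and F2 pigs of both lines were kept on the standard feed, and F1 boars were mated to Large White sows. Each F0 litter was split between the feeds, but only some of these boars sired the F1 generation, and not all of the sires were littermates. The study states that it could not tell genetic and epigenetic effects apart. Each line had fewer sires than the pigs measured here, so some pigs share a sire, and the litter of each pig is not given in the sources used here, so the p-values measure the spread between pigs of which some are related. The comparison between lines asks whether the feed of the paternal grandfather goes with a different transcript level in the F2 tissue.

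Reactive oxygen species arise in mitochondria, in peroxisomes and in oxidative reactions of the liver. Catalase breaks down hydrogen peroxide in peroxisomes, glutathione peroxidases reduce hydrogen peroxide and lipid peroxides with glutathione, and peroxiredoxins use a reactive cysteine that is reduced again by thioredoxin or glutathione. Heme oxygenase 1 opens the heme ring and releases iron, carbon monoxide and biliverdin, and its gene is a classic target of the stress-responsive factor NRF2. Liver and kidney are rich in peroxisomes and are known for high catalase activity.

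All 9 probes were well above background on all 48 arrays, and none was marked as saturated. One CAT spot was marked by the scanner software as an outlier, on a liver array of the F2 C line, and it was left out, so CAT has 15 liver values. HMOX1 is printed 5 times per array, and its spots were averaged after 4 marked liver spots were left out. Tissue markers matched the labels: 7 of 7 measured GM markers, 5 of 5 measured liver markers and 3 of 3 measured kidney markers were higher in their own tissue than in both others in limma. Arrays were placed 4 to a slide and a slide held 1 tissue, so tissue and slide group cannot be told apart. On the GM and kidney slides a slide also held 1 line. Of the 4 liver slides, 2 held both lines and 2 held 1 line, and the liver arrays were scanned on 2 days. On the slides with 1 line, line and slide cannot be told apart. The kidney arrays of F2 E pigs f2_m_2890 and f2_f_2897 were dim, with a median signal of 48 against 100 to 240.5 on the other 14 kidney arrays. Levels below are log2 signals after quantile normalization, so a difference of 1 is a doubling, and they compare one probe across samples, never one probe with another.

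Liver, kidney and GM differed in nearly all members. CAT, GPX1, PRDX6 and HMOX1 were highest in liver, whereas GPX4 and TXN were highest in kidney, and GM was the lowest tissue for CAT, GPX1, TXN and HMOX1. With the brighter probe of each gene, 5 of the 6 genes were higher in liver than in GM and 1 was lower. The same fit called 35.6% of the 34501 probes tested higher in liver and 35.0% higher in GM. Kidney exceeded GM in 6 of the 6 genes, against 39.9% of all probes higher in kidney and 35.2% higher in GM, but the call of PRDX6 was lost under the 75th percentile scaling described below for CAT (0.03, adjusted p = 0.762 in limma). Between liver and kidney, 4 genes were higher in liver and 2 were higher in kidney, against 33.5% and 36.6% of all probes. These counts used a Benjamini-Hochberg adjusted p below 0.05 over all probes tested in limma, with the pig as a random block. An exact two-sided sign-flip permutation test over pigs gave 3.05e-05 for GPX1, HMOX1 and both PRDX6 probes between liver and GM, which is the smallest p that 16 pigs allow. In whole tissue, a higher share of an enzyme-rich cell type and more transcript per cell cannot be told apart.

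**Figure D1:**
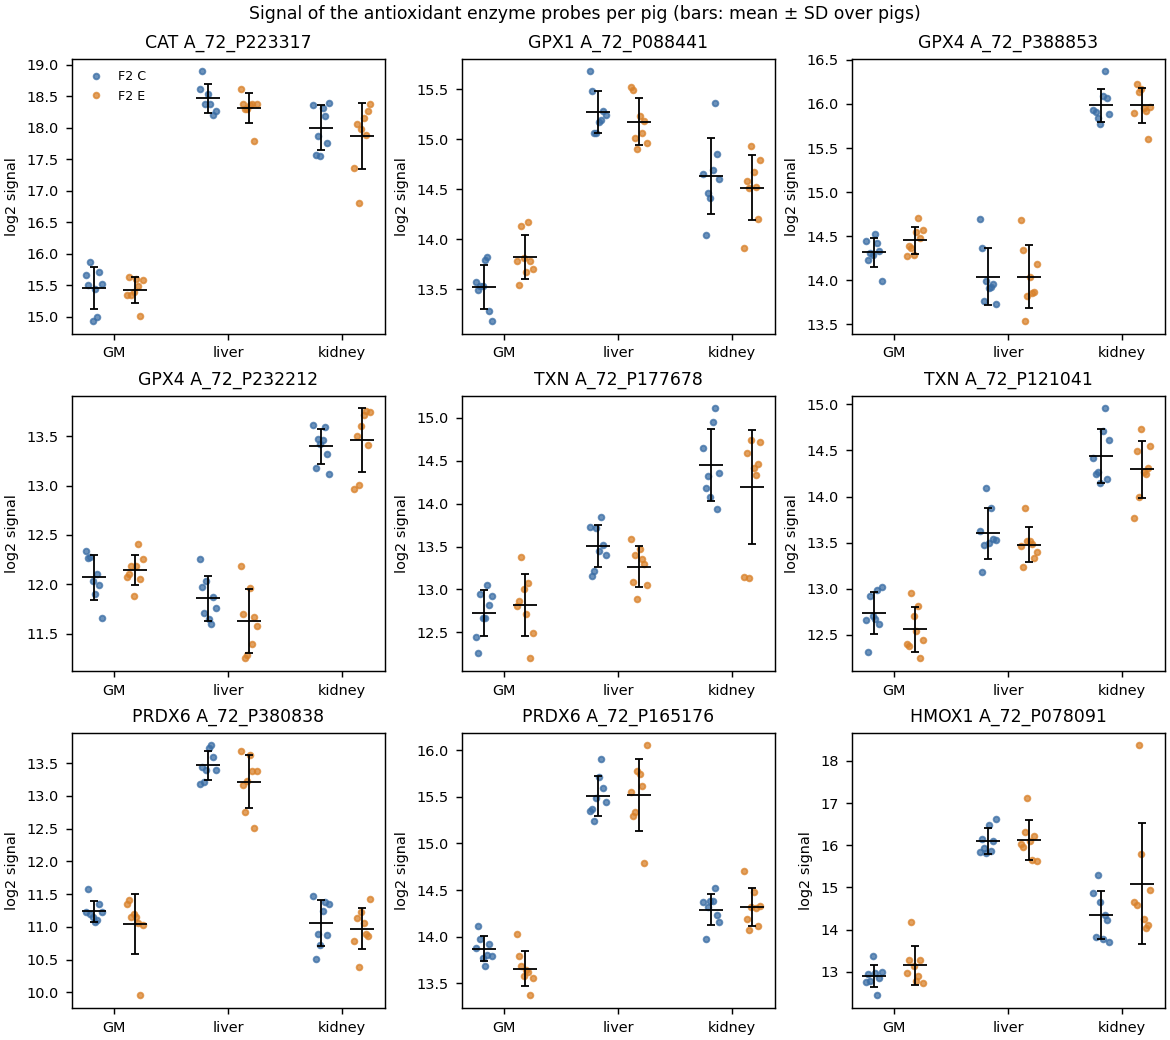
Log2 signal of each of the 9 probes (quantile-normalized over 48 arrays, vertical axis) for every pig in GM, liver and kidney (horizontal axis), with F2 C in blue, F2 E in orange and bars for the mean ± SD. CAT in GM (14.92 to 15.86) lies below all its liver and kidney values, GPX4 is highest in kidney, and 1 F2 E kidney stands far above the rest for HMOX1 at 18.37.

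Catalase, the peroxisomal enzyme that splits hydrogen peroxide into water and oxygen, had the second largest liver to GM difference of the set. Its log2 level was 14.92, 15.49 and 15.86 in the lowest, median and highest GM, against 17.78, 18.38 and 18.90 in liver. In kidney the same order statistics were 16.81, 18.02 and 18.40. No GM value reached the lowest liver or kidney value, whereas 11 of the 15 liver values lay within the kidney range. Liver exceeded GM by 2.95 (SE 0.118, 7.75-fold, adjusted p = 2.4e-27 in limma), with a higher value in liver in 15 of 15 pigs. Kidney exceeded GM by 2.50 (SE 0.116, 5.64-fold) in 16 of 16 pigs. Liver exceeded kidney by only 0.46 (SE 0.118, adjusted p = 0.000605 in limma), and 12 of 15 pigs showed that direction. CAT was among the brightest spots in liver, where a median of 38 spots per array were brighter, and several liver arrays had the same number of brighter spots and so the same quantile value. On 1 F2 C liver array it shared the maximum with other spots, 12 in all.

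The size of the CAT difference involving kidney depended on the normalization. When each array was scaled to the 75th percentile of its signals in place of quantile normalization, kidney exceeded GM by 1.38 (SE 0.109) and liver exceeded kidney by 1.30 (SE 0.111). Scaling to this percentile moved the median of all probes by -0.65 for kidney minus GM and by 0.40 for liver minus kidney. Liver minus GM was 2.67 under the same scaling, with a shift of -0.26 over all probes. The order liver, kidney, GM held under each of these settings. Without the dim kidney arrays, CAT was 2.63 higher in kidney than in GM.

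GPX1, the abundant cytosolic selenoenzyme that reduces hydrogen peroxide with glutathione, followed the order of catalase with smaller steps. Its log2 level ran from 13.18 to 14.18 in GM with a median of 13.69, and from 14.90 to 15.68 in liver with a median of 15.19. Kidney values lay between 13.91 and 15.36, with a median of 14.59. GM and liver did not overlap, and 2 kidney values fell inside the GM range. Liver exceeded GM by 1.55 (SE 0.0972, 2.92-fold, adjusted p = 1.0e-19 in limma). Kidney exceeded GM by 0.90 (SE 0.0972, 1.87-fold), and liver exceeded kidney by 0.65 (SE 0.0972). With the 75th percentile scaling, kidney minus GM fell to 0.37 (SE 0.115, adjusted p = 0.00347 in limma) and liver minus kidney rose to 1.09.

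GPX4, the selenoenzyme that reduces lipid hydroperoxides within membranes and so protects cells against ferroptosis, had another order. Probe A_72_P388853 had a lowest, median and highest log2 level of 13.99, 14.38 and 14.70 in GM and of 13.53, 13.94 and 14.69 in liver. In kidney these were 15.60, 15.94 and 16.37. Every kidney lay above every GM and every liver, and 7 of the 16 liver values lay inside the GM range. Kidney exceeded GM by 1.60 (SE 0.0879, 3.03-fold, adjusted p = 5.8e-22 in limma) in 16 of 16 pigs. Liver minus kidney was -1.94 (3.84-fold lower in liver), with liver lower in each pig. Liver minus GM was -0.34 (SE 0.0879, adjusted p = 0.000579 in limma), with liver lower in all but 3 of 16 pigs.

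The other GPX4 probe, A_72_P232212, gave the same order. Its median log2 level was 11.71 in liver, 12.11 in GM and 13.46 in kidney. Kidney minus GM was 1.32 (SE 0.0887), liver minus kidney was -1.68 and liver minus GM was -0.36. The 75th percentile scaling reduced kidney minus GM to 0.84 for A_72_P388853 and to 1.03 for A_72_P232212, and it lowered liver minus GM to -0.59 and -0.49. Both probes thus kept kidney first, GM next and liver last.

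**Figure D2:**
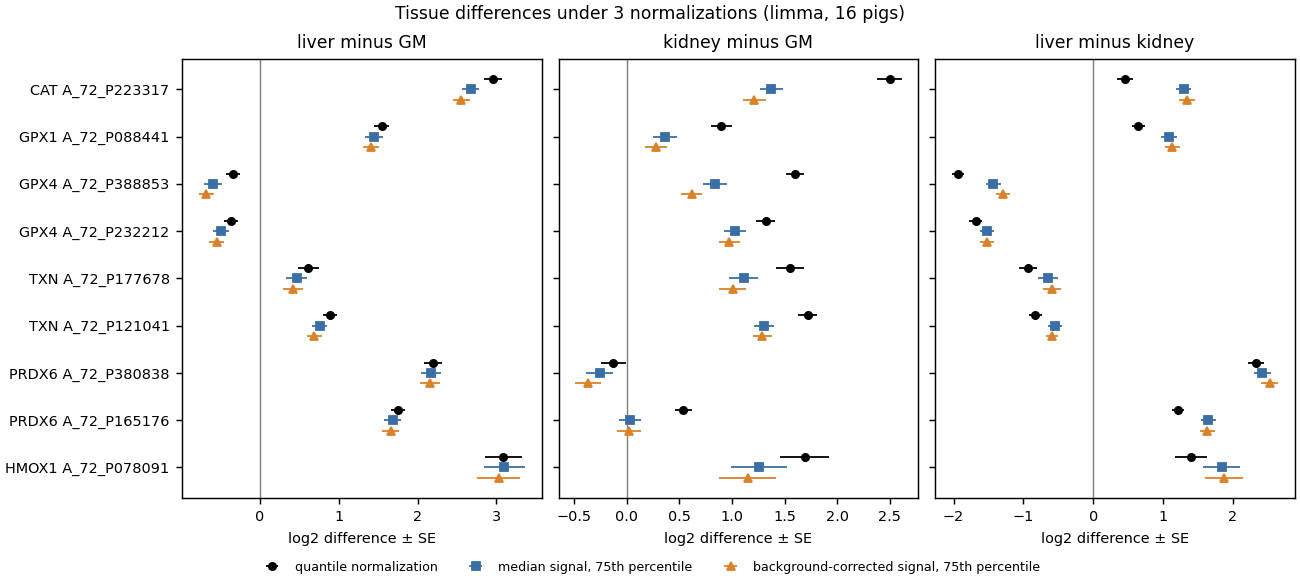
Difference between tissues on the log2 scale (horizontal axes) for each probe, with the SE from limma, under quantile normalization (circles), 75th percentile scaling of the median signal (squares) and 75th percentile scaling of the background-corrected signal (triangles). For liver minus GM the settings keep each sign, with GPX4 A_72_P388853 moving from -0.34 to -0.59 and -0.67, while for kidney minus GM the CAT difference is 2.50 under quantile normalization and 1.38 and 1.21 under the scalings.

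Thioredoxin, the small disulfide reductant that regenerates peroxiredoxins and ribonucleotide reductase, rose from GM through liver to kidney. With probe A_72_P121041, the lowest, median and highest log2 levels were 12.25, 12.67 and 13.02 in GM and 13.18, 13.51 and 14.09 in liver. In kidney they were 13.77, 14.29 and 14.96. GM overlapped neither other tissue, and 3 liver values lay within the kidney range. Liver exceeded GM by 0.89 (SE 0.0921, 1.86-fold, adjusted p = 3.3e-12 in limma), and kidney exceeded GM by 1.72 (SE 0.0921, 3.29-fold). Liver minus kidney was -0.83 (SE 0.0921), with liver the lower tissue in each of the 16 pigs.

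Probe A_72_P177678 gave 0.62 (SE 0.135) for liver minus GM, 1.55 for kidney minus GM and -0.93 for liver minus kidney. Here the tissues overlapped more, with 13 liver values inside the kidney range. The dim kidney arrays lay lowest, since this probe read 13.60 and 13.61 there when the kidney arrays were normalized among themselves, against 14.33 to 15.35 on the other 14. Without these arrays the SD over kidneys was 0.28 in place of 0.49, and liver minus kidney became -1.11. Under the 75th percentile scaling, A_72_P177678 gave 0.47 for liver minus GM, 1.11 for kidney minus GM and -0.65 for liver minus kidney, and A_72_P121041 gave 0.76, 1.31 and -0.55. These TXN differences kept their calls.

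PRDX6 is a peroxiredoxin with a single reactive cysteine, which is reduced by glutathione, and the protein also has phospholipase activity. Probe A_72_P165176 had a lowest, median and highest log2 level of 13.37, 13.78 and 14.11 in GM and of 14.79, 15.52 and 16.05 in liver. In kidney they were 13.97, 14.32 and 14.71. Liver stood clear of both other tissues, and 2 kidney values fell inside the GM range. Liver exceeded GM by 1.75 (SE 0.0835, 3.37-fold, adjusted p = 1.7e-24 in limma) and kidney by 1.21 (2.32-fold). With probe A_72_P380838, liver exceeded GM by 2.20 (SE 0.115, 4.60-fold) and kidney by 2.33.

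GM and kidney were close for PRDX6, and their order was not settled. Kidney minus GM was 0.54 (SE 0.0835, adjusted p = 1.3e-07 in limma) with A_72_P165176 and -0.12 (SE 0.115, adjusted p = 0.327) with A_72_P380838, which was higher in kidney in 7 of 16 pigs. Under the 75th percentile scaling the value for A_72_P165176 was 0.03 (adjusted p = 0.762) with the median signal and 0.02 (adjusted p = 0.86) with the background-corrected signal. A_72_P380838 then gave -0.25 (adjusted p = 0.0594) and -0.36 (adjusted p = 0.00809). PRDX6 was the member for which the call between tissues depended on the scaling.

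HMOX1, the inducible heme-degrading enzyme that Kupffer cells and spleen macrophages use to recycle red cell heme, had the largest liver to GM difference of the set. The lowest, median and highest log2 level was 12.44, 12.96 and 14.17 in GM and 15.62, 16.05 and 17.12 in liver. Kidney spread most, with 13.70, 14.47 and 18.37. No GM reached the lowest liver, but every liver value lay within the kidney range, which 1 pig stretched. Liver exceeded GM by 3.09 (SE 0.233, 8.51-fold, adjusted p = 9.1e-17 in limma) in 16 of 16 pigs. Kidney exceeded GM by 1.69 (SE 0.233) in 16 of 16 pigs, and liver exceeded kidney by 1.40 (SE 0.233) in 15 of 16 pigs. Without the dim kidney arrays, which include the highest HMOX1 kidney, these became 1.46 (SE 0.161) and 1.63 (SE 0.161). The 75th percentile scaling gave 1.26 and 1.84.

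Macrophage markers were higher in liver, as HMOX1 was, but did not share one direction between kidney and GM. Of the 6 listed macrophage markers, 3 had a probe (CD163, CD14 and AIF1), and 3 of these 3 were higher in liver than in GM and than in kidney. For kidney minus GM, AIF1 was 2.39 (SE 0.109), CD14 was -0.50 (SE 0.110, adjusted p = 7.75e-05 in limma) and CD163 was -0.23 (SE 0.151, adjusted p = 0.172 in limma), against 1.69 for HMOX1. The part of macrophage content in the HMOX1 tissue differences was not tested.

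In each tissue the highest HMOX1 level was that of a single F2 E pig. After normalization within each tissue, pig f2_f_2897 read 18.22 in kidney, where the next pig read 15.94, and 13.55 in GM, where no other pig exceeded 12.67. In liver this pig read 16.53, within the range of the other pigs, and the highest liver was that of pig f2_f_2899 at 17.36. The SD over pigs was 0.39 in liver, 0.42 in GM and 0.99 in kidney. Among F2 C pigs alone it was 0.31, 0.29 and 0.50 in this order, and without the dim arrays the kidney SD was 0.53. The median SD between the 5 spots of an array was 0.20, 0.21 and 0.27 in the same order and reached 0.41 on 1 liver array, and it leaves out the error of labelling, array and slide. The kidney array of pig f2_f_2897 was one of the dim arrays, and its GM array had the fewest spots above background in GM (18948). The kidney mean of this pig over CD163, CD14 and AIF1, 11.70, was the highest of the kidneys. The markers did not agree: CD14 at 9.31 and CD163 at 12.21 lay above the kidney means of both lines. AIF1 at 13.58 lay below its kidney means of 13.79 in F2 C and 13.69 in F2 E. Whether the dimness, the count of spots above background or the macrophage markers bear on the HMOX1 levels of this pig was not tested.

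**Figure D3:**
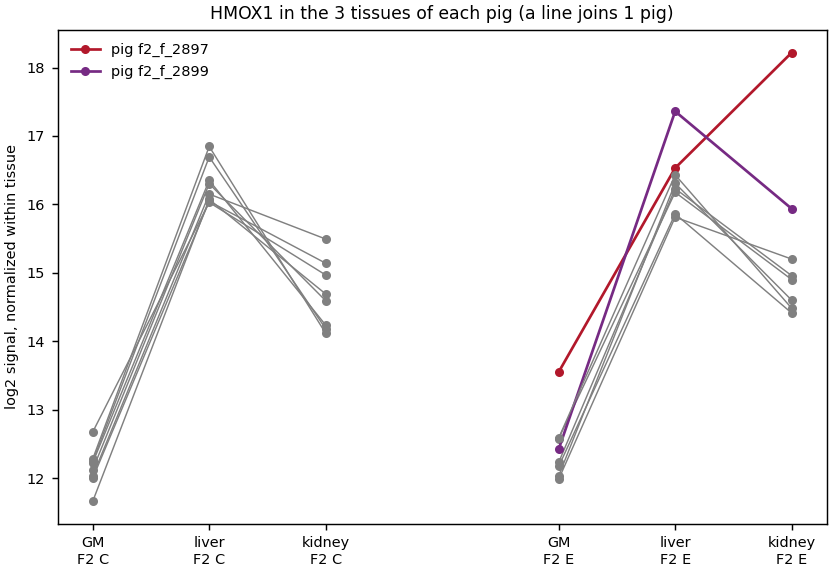
HMOX1 log2 signal normalized within each tissue (vertical axis) in GM, liver and kidney, with a line joining the tissues of 1 pig and the lines F2 C and F2 E side by side. Pig f2_f_2897 (red) is highest in kidney at 18.22 and in GM at 13.55, and pig f2_f_2899 (purple) is highest in liver at 17.36.

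The comparison of F2 E with F2 C pigs found no member that passed the adjusted threshold in any tissue. In GM 0 of 9 member probes passed an adjusted p below 0.05, against 0.769% of the 25625 probes tested, and 2 of 9 had an unadjusted p below 0.05, against 16.1%. In liver the counts were 0 and 0 of 9, against 0.0937% and 8.29% of 28823 probes, and in kidney 0 and 0 of 9, against 0.0119% and 3.89% of 33664 probes. Where members were called at the unadjusted threshold, their share was therefore near that of all probes. The values below were normalized within each tissue.

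GPX1 in GM had the smallest p of the set. The lowest, median and highest log2 level was 12.47, 12.85 and 13.17 in F2 C and 12.87, 13.12 and 13.55 in F2 E. The ranges overlapped, although 8 of 8 F2 E pigs lay above the F2 C median and 5 F2 C pigs lay below every F2 E pig. F2 E minus F2 C was 0.33 (SE 0.123, 95% interval 0.07 to 0.58), with an unadjusted p = 0.0167 and an adjusted p = 0.212 in limma and p = 0.0151 in an exact two-sided permutation test. With the slide as a random block the limma p was 0.0835. In liver the GPX1 difference was -0.11 (95% interval -0.38 to 0.16), and the kidney value was -0.10 (95% interval -0.43 to 0.22).

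PRDX6 in GM was lower in most F2 E pigs with probe A_72_P165176. F2 C pigs ran from 13.02 to 13.48 with a median of 13.19, and F2 E pigs from 12.68 to 13.39 with a median of 12.96. In 7 of 8 F2 E pigs the level was under the F2 C median, and 5 lay under every F2 C pig. The difference was -0.23 (SE 0.103, 95% interval -0.45 to -0.01, unadjusted p = 0.0395, adjusted p = 0.284 in limma), and an exact two-sided permutation test gave p = 0.0242. With the slide as a random block the limma p was 0.115. Probe A_72_P380838 gave -0.22 (95% interval -0.58 to 0.15), with F2 C between 10.19 and 10.75 and F2 E between 9.0 and 10.57. This value rested on the lowest pig, f2_f_2949, without which it was -0.05.

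In liver the PRDX6 probes parted. A_72_P380838 ran from 13.20 to 13.82 in F2 C (median 13.46) and from 12.52 to 13.73 in F2 E (median 13.33), a difference of -0.26 (95% interval -0.60 to 0.08). A_72_P165176 ran from 15.41 to 16.12 in F2 C and from 14.92 to 16.26 in F2 E, a difference of 0.01 (95% interval -0.33 to 0.34). Neither interval excluded 0, and in both probes the F2 E livers spread over a wider range than the F2 C livers. The kidney values were -0.08 and 0.02, with intervals of -0.41 to 0.26 and -0.19 to 0.23, and A_72_P380838 gave 0.05 (SE 0.153) without the dim arrays.

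CAT had nearly the same level in both lines in GM, with medians of 15.04 in F2 C and 14.96 in F2 E and a difference of -0.03 (95% interval -0.35 to 0.28). Both liver medians were 18.54 and the difference was -0.15 (95% interval -0.41 to 0.11). In kidney the medians were 17.91 and 17.90 and the difference was -0.11 (95% interval -0.52 to 0.29). The dim F2 E kidney arrays read 16.87 and 17.33 for CAT, below every other kidney, and without them the sign turned, to 0.11 (SE 0.145, adjusted p = 0.912 in limma). The F2 C and F2 E ranges of CAT overlapped in all 3 tissues.

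GPX4 with A_72_P388853 read 13.35, 13.71 and 13.93 in the lowest, median and highest F2 C GM and 13.66, 13.84 and 14.14 in F2 E. The difference was 0.15 (95% interval -0.06 to 0.36), and 3 F2 E pigs exceeded every F2 C pig. The difference of this probe was under 0.001 in size in liver (95% interval -0.37 to 0.37) and in kidney (95% interval -0.22 to 0.23). A_72_P232212 gave -0.23 in liver (95% interval -0.52 to 0.07), 0.06 in kidney and 0.08 in GM. In kidney this probe read 13.43 and 13.47 on the dim F2 E arrays, below every other kidney (13.57 to 14.17), and without them the difference was 0.21 (SE 0.099, unadjusted p = 0.0505, adjusted p = 0.897 in limma).

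TXN differences lay between -0.25 and 0.10 over both probes and the tissues. The interval nearest to excluding 0 was that of A_72_P177678 in liver, at -0.25 (95% interval -0.52 to 0.02). There F2 C pigs ran from 13.18 to 13.90 with a median of 13.52 and F2 E pigs from 12.90 to 13.63 with a median of 13.35, and 7 of 8 F2 E pigs lay under the F2 C median and 3 under every F2 C pig. In kidney the same probe gave -0.23 (95% interval -0.72 to 0.26), and without the dim arrays it gave 0.08 (SE 0.154). The GM value of A_72_P121041 was -0.19, and its liver and kidney values were both -0.13. Without the dim arrays its kidney value was -0.01 (SE 0.124).

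HMOX1 had the widest interval between lines. In kidney the lowest, median and highest log2 level was 14.12, 14.64 and 15.49 in F2 C and 14.41, 14.93 and 18.22 in F2 E. The difference was 0.66 (SE 0.436, 95% interval -0.26 to 1.58), and it became 0.25 (SE 0.245) without pig f2_f_2897 and 0.25 (SE 0.261) without both dim arrays. In GM, F2 C pigs ran from 11.66 to 12.67 and F2 E pigs from 11.98 to 13.55, with a difference of 0.29 (95% interval -0.11 to 0.69), and without pig f2_f_2897 it was 0.13 (SE 0.14). In liver it was 0.03 (95% interval -0.37 to 0.43). Pig f2_f_2897 decided the size of the HMOX1 value in kidney and in GM.

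**Figure D4:**
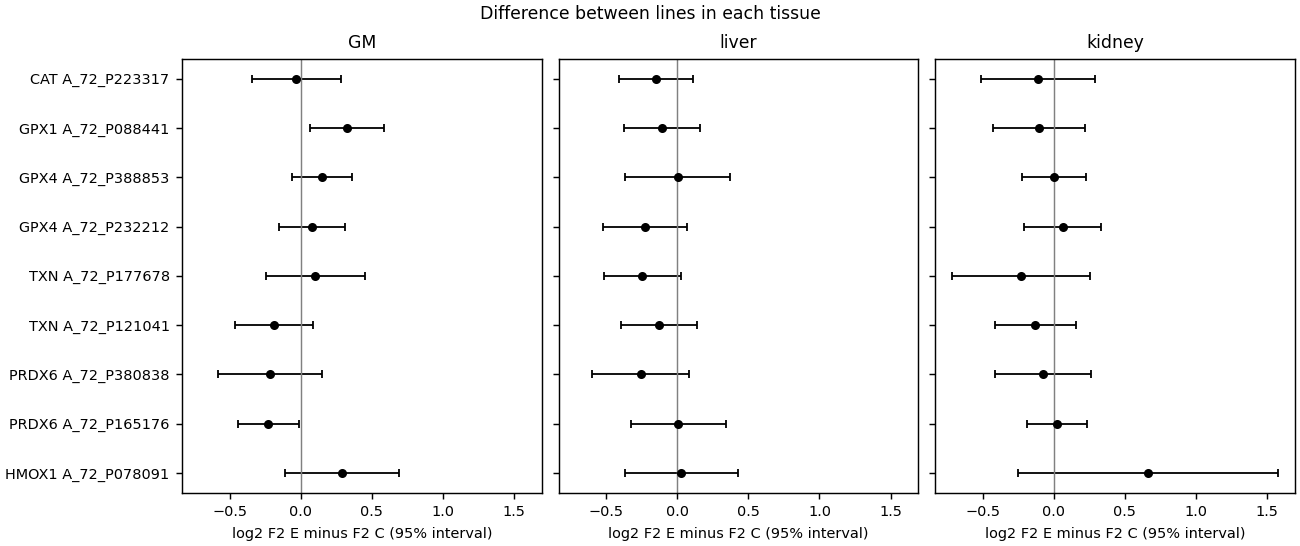
F2 E minus F2 C on the log2 scale (horizontal axes) for each probe in GM, liver and kidney, with 95% intervals from limma over 8 pigs a line. The intervals include 0 for all but GPX1 in GM (0.07 to 0.58) and PRDX6 A_72_P165176 in GM (-0.45 to -0.01), and HMOX1 in kidney has the widest interval.

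Whether the line difference changed with the tissue was tested in the fit over 48 arrays, as a difference of differences. No member passed the adjusted threshold: 0 of 9 for liver against GM (0.122% of all probes), 0 of 9 for kidney against GM (0.0464%) and 0 of 9 for liver against kidney (0.0203%). At an unadjusted p below 0.05 there was 1 member for liver against GM (7.48% of all probes), 1 for kidney against GM (5.70%) and 0 for liver against kidney (2.28%), and both were GPX1. Its F2 E minus F2 C difference in liver less that in GM was -0.40 (SE 0.194, unadjusted p = 0.0441, adjusted p = 0.645 in limma), and the value for kidney against GM was -0.42 (SE 0.194, unadjusted p = 0.0357, adjusted p = 0.847). Under the 2 alternative settings run, the unadjusted limma p of GPX1 ran from 0.0188 to 0.0627 for liver against GM. For kidney against GM it ran from 0.0523 to 0.0737.

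Sex was compared within each tissue, with the line in the fit. No member probe passed the adjusted threshold in GM (0 of 9, against 0.121% of all probes), liver (0 of 9, against 0.121%) or kidney (0 of 9, against 0.0921%). At an unadjusted p below 0.05 there were 0 of 9 in GM (3.86% of all probes), 4 of 9 in liver (14.2%, a smaller share than among the members) and 0 of 9 in kidney (0.939%). The 4 liver values were each lower in females. Female minus barrow was -0.29 for GPX1 (SE 0.108, adjusted p = 0.253 in limma) and -0.40 for GPX4 A_72_P388853 (SE 0.152, adjusted p = 0.264 in limma). For CAT it was -0.25 (SE 0.110, adjusted p = 0.315 in limma), and for PRDX6 A_72_P380838 it was -0.33 (SE 0.147, adjusted p = 0.326 in limma). Their unadjusted limma p-values ran from 0.0147 to 0.0396.

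Female minus barrow in liver was also taken over sets of slides. On 2 liver slides both sexes were present, and on the other 2 each slide held 1 sex. Each slide with both sexes held 1 line, and each slide with 1 sex held both lines. The slides with both sexes held only pigs from the upper number series of the labels. The slides with 1 sex held only pigs from the lower number series. For GPX1, female minus barrow was 0.002 over the slides with both sexes and -0.59 over the slides with 1 sex. GPX4 A_72_P388853 gave 0.006 and -0.80 in the same order. CAT gave -0.20 and -0.24, and PRDX6 A_72_P380838 gave -0.42 and -0.23. With the slide as a fixed block, in place of the line, a setting chosen after the data were seen, the unadjusted limma p was 0.985 for GPX1, 0.967 for GPX4, 0.188 for CAT and 0.0506 for PRDX6. On the slides with 1 sex, sex and slide cannot be told apart. The sets of slides also held different pigs, so a gap between the sets cannot be assigned to the slides or to the pigs. Whether either bears on the sex values was not tested.

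**Figure D5:**
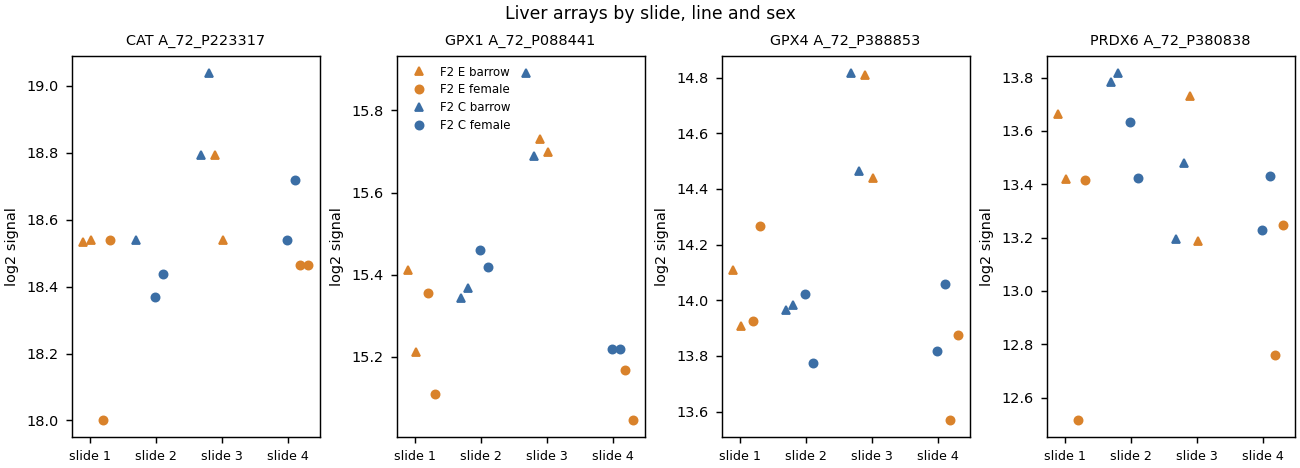
Liver log2 signal normalized within liver (vertical axes) for CAT, GPX1, GPX4 A_72_P388853 and PRDX6 A_72_P380838 on each of the 4 liver slides (horizontal axes), with triangles for barrows, circles for females, blue for F2 C and orange for F2 E. Over slides 1 and 2, which hold both sexes, the sexes of GPX1 and GPX4 overlap, whereas for these probes the barrows of slide 3 lie above the females of slide 4.

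Line by sex interactions were also fitted. No member passed the adjusted threshold, as 0% of all probes did in each tissue, and 0 of 9 member probes had an unadjusted p below 0.05 in GM (3.47% of all probes), liver (1.76%) or kidney (2.63%).

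Pigs were then followed across tissues. For each probe and each pair of tissues, the levels of the same pigs were correlated, which gave 27 relations, and 0 passed after Benjamini-Hochberg adjustment of permutation p-values. The smallest p was that of TXN A_72_P121041 between liver and GM (r = 0.62, rho = 0.68, permutation p = 0.00951, adjusted p = 0.257, 16 pigs), and r was 0.72 without the 2 pigs farthest from the median in liver. HMOX1 between kidney and GM had r = 0.69 and rho = 0.03 (permutation p = 0.0299, adjusted p = 0.332), and r was -0.17 without the 2 farthest pigs, so this relation rested on those pigs. PRDX6 A_72_P380838 between liver and GM had r = 0.57 and rho = 0.07 (permutation p = 0.0389, adjusted p = 0.332), and r was -0.16 without the 2 farthest pigs. PRDX6 A_72_P165176 between liver and kidney had r = 0.50 (permutation p = 0.0492, adjusted p = 0.332) and rho = 0.59 (permutation p = 0.0181), and r was 0.52 without the 2 farthest pigs.

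The probes of a gene were also set against each other over the 16 pigs of a tissue, 9 relations in all. For TXN, r was 0.90 and rho 0.94 in kidney, 0.75 and 0.75 in GM and 0.66 and 0.69 in liver, with adjusted permutation p between 9e-05 and 0.00916. For PRDX6, r was 0.74 in liver, 0.77 in GM and 0.36 in kidney, where the adjusted permutation p was 0.189. For GPX4, r was 0.75 in liver, 0.61 in GM and 0.13 in kidney, where the adjusted permutation p was 0.644. In GM the GPX4 relation had r = 0.10 without the 2 farthest pigs and thus rested on them. Both PRDX6 and GPX4 had the weakest correspondence between their probes in kidney.

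The named genes whose levels ran most like each member over the arrays were looked up among 1723 genes. These coefficients describe 48 arrays that share 3 tissues and 16 pigs, and they carry no test. For CAT they were SELENOP, which carries selenium in plasma (r = 0.98), PON1, a lipoprotein-bound esterase (r = 0.98), and CRYZ, a quinone reductase (r = 0.98). For GPX1 they were FOLR2 (r = 0.95), GSTO1 (r = 0.93) and CYP2D25 (r = 0.92). GPX4 ran with TCTN3, HSD11B2 and KLK1 (r = 0.96 for each), and TXN with ARL3, NPL and EPCAM (r = 0.96, 0.96 and 0.95). For PRDX6 they were RGN, C9 and PROC (r = 0.96, 0.95 and 0.95), and for HMOX1 the zinc exporter SLC30A1 with EPHX1 and APOC3 (r = 0.88 for each).

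After the mean of each tissue and line was subtracted, what remained was the spread between pigs and arrays. CAT then ran most with HADH, an enzyme of fatty acid oxidation (r = 0.84), SELENOP (r = 0.83) and CRYZ (r = 0.83). GPX1 ran most with another member, GPX4 (r = 0.65 with A_72_P388853), and then with PROC (r = 0.64) and the glutathione transferase MGST3 (r = 0.62). GPX4 ran with COX6C (r = 0.73), FKBP1A (r = 0.73) and DGAT1 (r = 0.72), and TXN with F5 (r = 0.70), HSD17B4 (r = 0.68) and HPRT1 (r = 0.67). PRDX6 had no gene over RNF19A at r = 0.54, followed by KIT (r = 0.53) and ACSS2 (r = 0.52), and HMOX1 ran with PTGES3 (r = 0.61), RAMP2 (r = 0.60) and STAT3 (r = 0.56). The points share slides and array brightness.

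Other genes of the redox network were taken from a list of 74, of which 27 had a probe. Their counts stand beside the all-probe shares given above for the tissues. In liver against GM, 18 of 26 tested genes were higher in liver, 5 were higher in GM and 3 were not called. Kidney against GM had 17 higher in kidney and 7 higher in GM, and liver against kidney had 16 higher in liver and 6 higher in kidney. The largest liver to GM differences were those of GSTA1, a glutathione transferase (10.77, SE 0.326), and HPX, the plasma protein that binds free heme (10.50, SE 0.219). GSTA1 was well above background on 11 of 16 GM arrays, so the size of its difference depends on the background level. From GM to kidney the largest differences were those of the metallothionein MT1A (6.88, SE 0.309) and GGT1, which starts the breakdown of glutathione. GGT1 was well above background on 16 of 16 kidney arrays and on 0 GM arrays, so its difference has only a bound, and no size is given. Between kidney and liver they were those of the hemoglobin-binding HP (10.66, SE 0.405) and HPX (8.60, SE 0.219).

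Grouped by function, of the glutathione transferases 4 of 4 measured (15 listed) were higher in liver and 4 of 4 were higher in kidney than in GM, with median differences of 4.06 and 2.99. The single genes ranged widely, from 0.90 for MGST3 to 10.77 for GSTA1 between liver and GM, and 1 of the 4 was not called between liver and kidney. Among selenoproteins and metallothioneins, 4 of 6 were higher in liver and 5 of 6 in kidney than in GM. Of the other genes for superoxide and peroxide removal, 3 of 5 tested were higher and 1 lower in liver than in GM, and in kidney 2 were higher and 2 lower. The thioredoxin and glutaredoxin genes gave 3 higher and 1 lower of 4 against GM in both organs. The NRF2, heme and iron genes were mixed, with 3 of 6 higher and 2 lower in liver than in GM, 2 higher and 3 lower in kidney than in GM, and 5 of 6 higher in liver than in kidney. These 6 include HP and HPX, which the liver secretes. The glutathione synthesis list of 9 had GGT1 as its 1 measured gene.

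Between the lines, 1 of the 24 other redox genes tested in GM was called, against 0.769% of all probes. Neither the 25 tested in liver nor the 26 tested in kidney held a call, against 0.0937% and 0.0119% of all probes. At an unadjusted p below 0.05 in limma there were 2 in GM, 2 in liver and 1 in kidney, against 16.1%, 8.29% and 3.89% of all probes. These counts took only the brightest probe of a gene, and other probes could differ from it. For FTH1 in GM the brightest probe gave -0.03 (unadjusted p = 0.750 in limma). The FTH1 probes there ran from -0.42 (A_72_P417204, unadjusted p = 0.00259, adjusted p = 0.106 in limma) to 0.01 (A_72_P007652). The gene called in GM was TFRC, the transferrin receptor that takes up iron. Its log2 level in GM ran from 6.59 to 8.70 in F2 C (median 7.05) and from 4.99 to 6.29 in F2 E (median 5.76), so that the lines did not overlap. Only 2 of the 8 F2 E arrays were above background for this probe, against 8 of 8 F2 C arrays, so the size of the difference depends on the background level. F2 E minus F2 C was -1.58 (SE 0.259, adjusted p = 0.00799 in limma) as normalized and -0.89 (SE 0.172, adjusted p = 0.0293 in limma) after normexp background correction. In addition, the GM arrays of the F2 E line had fewer spots above background (18948 to 25728) than those of the F2 C line (23491 to 28754). With the slide as a random block the adjusted p was 0.193, so the call was lost. In the joint fit TFRC was also the 1 redox gene called for the line by tissue difference, for liver against GM and for kidney against GM.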

How the data were processed

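Total RNA from GM, liver and kidney was labelled with Cy3 and hybridized to 1-colour Agilent porcine arrays. The deposited scanner intensity values came from Feature Extraction 10.5.1.1 per the file headers, and the study's own normalization is not in them. Tables of the whole series hold the authors' normalized log2 signals with their ratios and p-values between lines and were not used. Median signal intensity was quantile-normalized (within a tissue for line and sex, over 48 arrays for tissues), set to log2 and averaged over the spots of a probe. The 1417 control spots did not enter. Any spot that the scanner software marked as an outlier was left out after normalization, before the spots of a probe were averaged. A probe counted as present, and was tested, where in at least 50% of a group its signal passed 25 and the scanner software placed it well above background (25625, 28823 and 33664 probes in GM, liver and kidney, 34501 in the joint fit). limma 3.58.1 (R 4.3.3) gave differences with Benjamini-Hochberg adjustment over all probes tested, and the pig was a random block across tissues (correlation 0.0301). Exact permutation tests ran over pigs, and correlations used 100000 resamples. Figures were drawn with matplotlib 3.10.9. The scripts were tested on simulated data.

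Gene names came from RefSeq accessions, which 2628 probes matched with 1 name. The members and gene lists were chosen with earlier results of these data known. All probes of the members were named, other redox genes where a line contrast called them or where they were among the 2 largest of a tissue contrast, and for likeness the 3 genes with the highest r. Pig identity in the labels pairs the tissues. The replicate numbers within a tissue name different pigs and were not used to pair them. Of 8 pairs with the same number in both lines, 2, 6 and 3 had a correlation over 0.1 in GM, liver and kidney. The median correlation in liver was 0.175, and fits with the number as a block are given below. The number of arrays limits the precision. Alternatives changed the signal, the normalization, the filter, the test, the blocks and the pigs. Gene coordinates are not printed because the build of the array design is not given in the sources used here.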

Additional observations from a re-analysis of the deposited data

Results flagged for a closer look

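In 7 of the 54 groups of pigs formed by probe, tissue and line, 1 pig stood apart from the others by more than Dixon's critical value, which chance alone does in about 1 of 20 groups. All 7 were F2 E groups, and 3 pigs accounted for them. The groups share pigs, and some share a gene, so they are not independent and the count gives no test against that rate. The gap to the nearest pig as a share of the group's range was 0.548 for CAT in GM, where pig f2_f_2949 was lowest at 14.48 and the next pig was at 14.86. It was 0.583 for CAT in liver, where the same pig was lowest at 18.00 with the next at 18.46, and 0.736 for PRDX6 A_72_P380838 in GM, where it was lowest at 9.0 with the next at 10.15. The GM array of this pig had the lowest median signal in GM, at 48, and whether that bears on its GM values was not tested.

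Pig f2_f_2897 was the highest of its group in the other flagged GM and kidney values and in 1 liver value. The gap was 0.561 for TXN A_72_P121041 in liver (13.93 against 13.56), 0.616 for HMOX1 in GM (13.55 against 12.59) and 0.599 for HMOX1 in kidney (18.22 against 15.94). That kidney array was one of the dim arrays. For HMOX1 in liver the gap was 0.536, and pig f2_f_2899 was highest at 17.36 against 16.53.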

How the results depend on the processing

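No member was called between lines, by sex or in the line by tissue test under any alternative run, and the smallest adjusted p was 0.156, 0.073 and 0.671 in this order. Of 693 alternative values for the tissue differences, 690 kept their side of the threshold, 2 lost the call (PRDX6 A_72_P165176, kidney minus GM) and 1 gained one (PRDX6 A_72_P380838, kidney minus GM), both under 75th percentile scaling, and no called value changed sign. The cause was not tested. Member probes called for kidney against GM therefore numbered 7 to 8. With the replicate block by number the F2 E minus F2 C value of GPX1 in GM was 0.33 (SE 0.116, adjusted p = 0.235 in limma), no member call changed under any replicate block, and the calls among all probes were 51, 22 and 0 for GM, liver and kidney. At an unadjusted p below 0.05, 2, 0 and 0 member probes passed the methods' t-test, and its calls among all probes after Benjamini-Hochberg adjustment were 126, 11 and 5 with equal variances and 56, 7 and 0 with unequal variances. Across all probes, 197 were called between lines in GM (5 with the slide as a random block, up to 505 under other settings), 27 in liver (7 to 108) and 4 in kidney (0 to 9), and leaving out 1 pig gave 89 to 194, 13 to 40 and 4 to 6. Member probes at an unadjusted p below 0.05 numbered 0 to 2 in GM, 0 to 2 in liver, 0 to 2 over the line by tissue tests and 1 to 4 for sex (1 with the slide as a fixed block). Within the pigs of the upper number series, 1 of the 27 relations across tissues passed (GPX4 A_72_P232212, kidney and GM, r = 0.92, 8 pigs, adjusted permutation p = 0.0256), against 0 over all pigs. Normexp on the mean signal could not be run, since the mean signal was not among the scanner values available here. Settings chosen after the data were seen were normexp on the median signal, leaving out the dim kidney arrays, the liver slides that hold both lines and, for sex, the slide as a fixed block.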
